A study of Homo sapiens with 7 samples.

Results

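The endoplasmic reticulum (ER) folds and inspects secreted and membrane proteins, and the genes described here serve its chaperones and the unfolded protein response. The 40 genes, out of 33694 rows in the count table, were taken by name: 39 through the deposited symbol and ATF6B, whose row had no symbol, through its Ensembl identifier (ENSG00000213676). They fall into 5 sensors and transducers, 15 chaperones and calcium-binding folding factors, 5 isomerases and oxidases, 10 genes of ER-associated degradation (ERAD), and 5 subunits of the translocon and its associated complex. They were measured in HK-2, a human proximal tubule cell line, 96 h after transfection with 50 nM siRNA. The control group was 4 libraries from cells given siRNAs of scrambled sequence, with the genotype label WT (replicates 1 to 4). The other group was 3 libraries from cells given siGLUT2, labelled GLUT2-KD (replicates 2 to 4), an siRNA against the glucose transporter gene SLC2A2. All 7 libraries came from the same cell line, medium, dose and time, and there was no untransfected group. The sources used here give neither the sequence nor the number of the siRNAs, so effects of lowering GLUT2 and other effects of the siGLUT2 reagent cannot be told apart.

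When unfolded proteins gather, HSPA5 (BiP) leaves the lumenal domains of IRE1 (ERN1), PERK (EIF2AK3) and ATF6. IRE1 splices XBP1 mRNA, PERK phosphorylates the initiation factor eIF2 alpha and so slows translation, and ATF6 is cut in the Golgi to free a transcription factor. Spliced XBP1 and cleaved ATF6 raise transcription of chaperones, isomerases, translocon subunits and ERAD genes, through promoter elements called ERSE, ERSE-II and UPRE. Proximal tubule cells carry a heavy load of membrane transporters and receptors that pass through the ER. The assay counted the 3' ends of mRNAs, so XBP1 splicing, eIF2 alpha phosphorylation and ATF6 cleavage were not measured.

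The promoter elements are shown first because they are the sequences through which the ATF6 and XBP1 arms are known to act. RefSeq promoter windows (GRCh38.p14, 250 bases before to 50 after each annotated start) were matched for 37 of the 40 genes. An ERSE was searched as CCAAT and CCACG separated by 9 bases, on either strand. It was found in the windows of 8 of these 37 genes (21.6%) and of 25 of all 27305 symbols in the table (0.0916%), so these genes make up 8 of the 25. The CANX element lies inside the annotated span of the gene. It also stood in the window of another annotated start, at 9 to -9 bases before it. The matches follow, 5′ to 3′ in the direction of the gene, with the outer motif parts in capitals; an element on the opposite strand reads CGTGG before ATTGG.
HSPA5 (chr9:125241371-125241429, minus strand, element 66 to 48 bases before the start): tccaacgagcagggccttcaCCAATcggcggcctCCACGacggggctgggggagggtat
HSP90B1 (chr12:103930196-103930254, plus strand, element 194 to 176 bases before the start): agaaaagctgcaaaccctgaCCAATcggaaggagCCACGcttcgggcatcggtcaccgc
HSP90B1 (chr12:103930301-103930359, plus strand, element 89 to 71 bases before the start): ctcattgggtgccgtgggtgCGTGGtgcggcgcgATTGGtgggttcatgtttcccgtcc
CALR (chr19:12938364-12938422, plus strand, element 225 to 207 bases before the start): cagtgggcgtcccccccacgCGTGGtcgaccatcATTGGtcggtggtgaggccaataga
CRELD2 (chr22:49918534-49918592, plus strand, element 80 to 62 bases before the start): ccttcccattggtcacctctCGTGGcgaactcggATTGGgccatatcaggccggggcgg
PDIA6 (chr2:10812833-10812891, minus strand, element 86 to 68 bases before the start): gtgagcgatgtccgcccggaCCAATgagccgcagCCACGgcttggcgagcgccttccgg
ERO1B (chr1:236282163-236282208, minus strand, element 243 to 225 bases before the start): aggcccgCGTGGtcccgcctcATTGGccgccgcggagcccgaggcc
XBP1 (chr22:28800583-28800641, minus strand, element 52 to 34 bases before the start): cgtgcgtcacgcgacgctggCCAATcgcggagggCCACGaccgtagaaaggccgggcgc
CANX (chr5:179698773-179698801, plus strand, element 151 to 133 bases before the start): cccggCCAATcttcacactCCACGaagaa

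The ERSE-II, searched as ATTGG and CCACG separated by 1 base on either strand, stood in 3 of the 37 windows (8.11%) and in 19 of 27305 symbols (0.0696%). HYOU1 held it at 2 places, and SDF2L1 and HERPUD1 at 1 each. Capitals again mark the motif parts.
HERPUD1 (chr16:56932005-56932055, plus strand, element 117 to 107 bases before the start): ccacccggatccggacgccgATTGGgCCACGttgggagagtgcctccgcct
HYOU1 (chr11:119057360-119057410, minus strand, element 185 to 175 bases before the start): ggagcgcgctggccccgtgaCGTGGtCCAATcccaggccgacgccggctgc
HYOU1 (chr11:119057254-119057304, minus strand, element 79 to 69 bases before the start): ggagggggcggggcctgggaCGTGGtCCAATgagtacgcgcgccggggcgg
SDF2L1 (chr22:21642094-21642144, plus strand, element 188 to 178 bases before the start): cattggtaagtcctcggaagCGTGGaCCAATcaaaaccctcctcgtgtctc

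The UPRE core was searched as TGACGTGG or TGACGTGT on either strand. TGACGTGG stood in the windows of DNAJC10, HYOU1, SSR3 and VCP (4 of 37, 10.8%, against 0.927% of all symbols), and TGACGTGT in that of SEC61A1 (2.7% against 0.469%). In HYOU1 the core overlapped the ERSE-II farther from the start. A match is a stretch of letters and not a measured binding site. The windows of DERL1, DERL3 and FKBP14 were not analysed here.

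**Figure D1:**
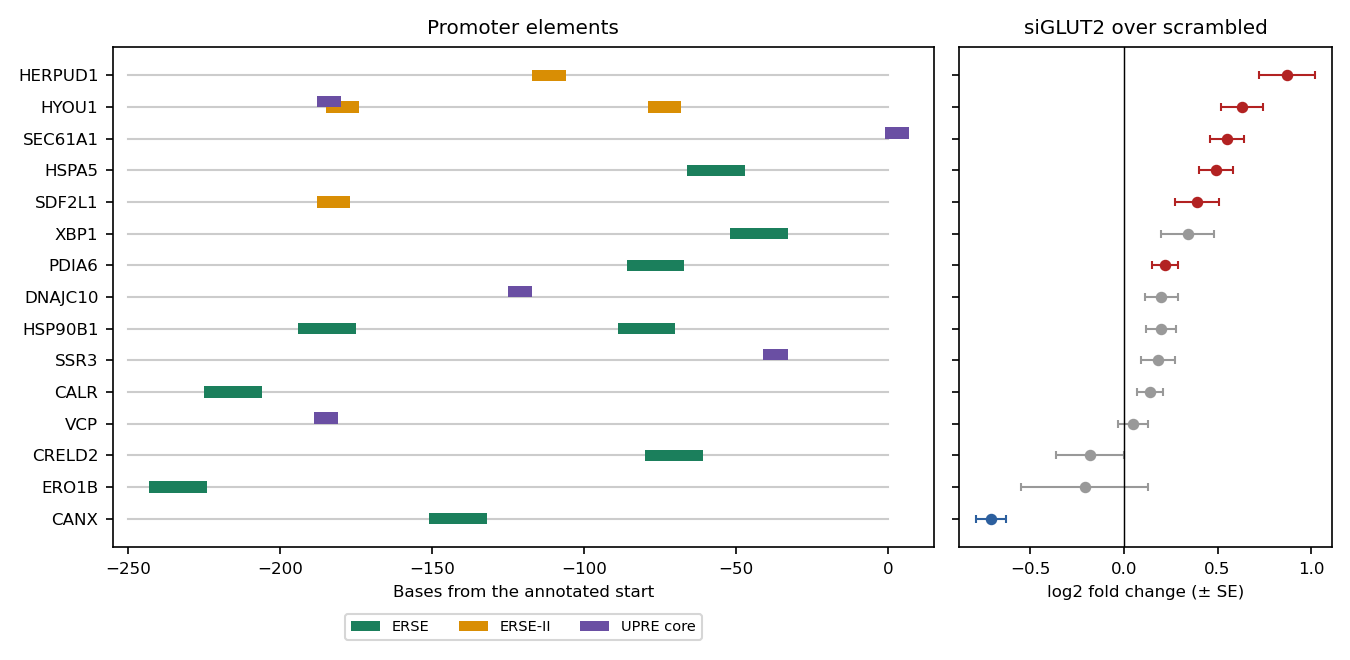
Left, position of each ERSE (green), ERSE-II (orange) and UPRE core (purple) in bases from the annotated start whose window held it, for the 15 genes with a match; right, log2 fold change siGLUT2 over scrambled ± SE of the same genes (red, higher; blue, lower; grey, not passed; n = 4 and n = 3 libraries). Genes with an ERSE or ERSE-II ran from CANX at -0.71 to HERPUD1 at 0.87. The CANX element is drawn for the start 151 to 133 bases after it and not for the other annotated start.

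Library facts come before the gene values. Total counts ran from 5654957 to 8455963 per library, and every one of the 40 genes passed the low-count filter, with 156 to 73844 counts each over the 7 libraries. SLC2A2 (chromosome 3, 170996348 to 171026750, minus strand, GRCh38) had raw counts of 13, 13, 7 and 17 in scrambled replicates 1 to 4 and of 0 in all 3 siGLUT2 replicates. The number of genes detected (1 count or more) was 14924 ± 82.2 (SD, n = 4) and 13632 ± 235 (SD, n = 3), and mitochondrially encoded genes took 5.17% ± 0.264 and 7.33% ± 0.265 of counts (exact two-sided permutation p = 0.0286 for each, the smallest that 35 splits allow). The part of these library differences in the results below was not tested. Of 14 proximal tubule markers 5 reached 1 CPM (counts scaled to a common library size) in scrambled cells (SLC5A2, SLC4A4, GGT1, PAX8 and CDH6), while LRP2, SLC22A6 and SLC22A8 had 0 counts in every library. The summed level of the 14 was 567 to 593 CPM in scrambled and 447 to 491 CPM in siGLUT2 libraries. All 5 epithelial markers reached 1 CPM, and their summed level was 1030 to 1150 CPM in scrambled and 616 to 746 CPM in siGLUT2 libraries. The 4 endothelial markers were at 0, as were PTPRC, CD3E and LYZ among 4 leukocyte markers. CD68, which is not restricted to leukocytes, made up the leukocyte sum of 13 to 18.2 CPM in scrambled and 25.1 to 27.2 CPM in siGLUT2 libraries. The fibroblast and pericyte sum was 8.97 to 13.2 CPM and 15.1 to 21.4 CPM.

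More of the 40 genes were higher than lower after siGLUT2. By edgeR's quasi-likelihood test, with p-values adjusted over 12404 genes by the Benjamini-Hochberg method, 15 passed as higher (37.5%) and 2 as lower (5.0%), where 13.9% and 14.4% of all tested genes did. The median log2 fold change was 0.24 over the 40 genes and -0.0029 over all tested genes. Most changes were small, and only ERN1, DNAJB9 and EDEM3 were changed at least 2-fold. In 23 genes the 2 groups were free of overlap, 19 with siGLUT2 above and 4 below. Of all 12404 tested genes 35.1% had no overlap, 2128 with siGLUT2 above and 2223 below. Together the 40 genes took 0.871%, 0.873%, 0.896% and 0.903% of counts in scrambled replicates 1 to 4 and 1.02%, 0.984% and 0.985% in siGLUT2 replicates 2 to 4. Every siGLUT2 library lay above every scrambled library in this share. Such a sum weighs highly counted genes most, among them HSP90B1 and CALR, which did not pass. In bulk RNA a change in every cell and a change in some cells cannot be told apart.

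Below, levels are CPM after TMM scaling, given for scrambled replicates 1 to 4 and then siGLUT2 replicates 2 to 4. Group values are mean ± SD, each fold change is the log2 ratio of siGLUT2 to scrambled ± SE, and the adjusted p is that of the test above, with n = 4 and n = 3. A gene passed when its adjusted p was below 0.05.

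**Figure D2:**
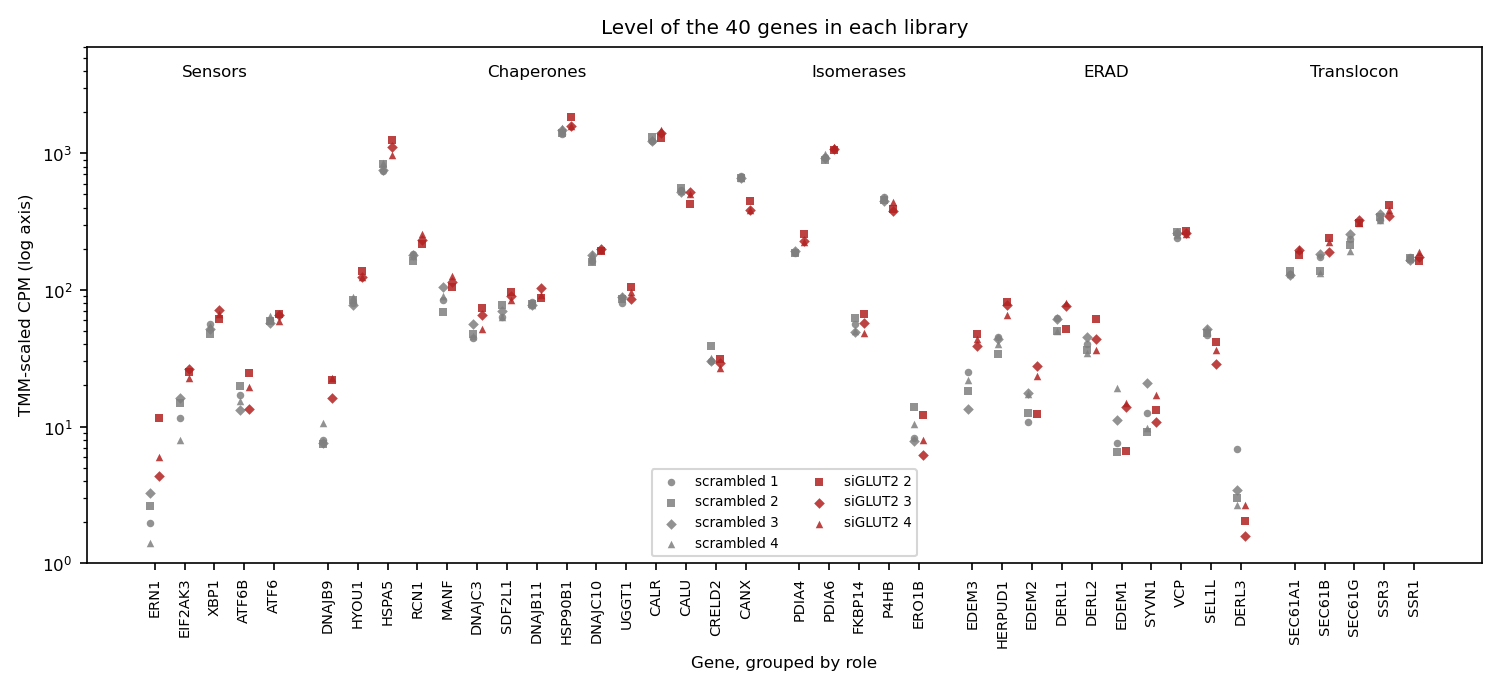
TMM-scaled CPM (log axis) of each of the 40 genes in each library, grouped by role and sorted by fold change within a role; grey symbols are scrambled and red symbols siGLUT2 libraries, and the shape gives the replicate number. For HSPA5 the siGLUT2 libraries sit between 975 and 1248 CPM and the scrambled libraries between 737 and 845 CPM, while for CANX all siGLUT2 libraries lie below.

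Among the sensors, the mRNAs of both ER kinases rose. The median of the 5 was 0.34, and 2 passed. ERN1 (ENSG00000178607, chromosome 17, 64039142 to 64130819, minus strand) encodes IRE1 alpha, the kinase and RNase that splices XBP1. It was at 1.96, 2.64, 3.29 and 1.41 CPM and then 11.6, 4.32 and 5.94 CPM. The groups did not overlap, and siGLUT2 replicate 2 was far above the other two. The fold change was 1.62 ± 0.51 (adjusted p = 0.0203), on raw counts of 8 to 26 and 30 to 68 per library. It was no longer called without siGLUT2 replicate 2 (1.12, adjusted p = 0.178), scrambled replicate 1 (adjusted p = 0.0538) or scrambled replicate 4 (adjusted p = 0.0614).

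EIF2AK3 (ENSG00000172071, chromosome 2, 88556741 to 88627576, minus strand) encodes PERK. It was at 11.6, 15, 16.3 and 7.94 CPM and then 25.1, 26.4 and 22.5 CPM. The siGLUT2 libraries lay close together and all above the scrambled ones, with a fold change of 0.94 ± 0.25 (adjusted p = 0.00667). The other 3 transducers did not pass. XBP1, the transcription factor spliced by IRE1, was at 56.6, 47.5, 52.0 and 54.3 CPM and then 61.7, 71.3 and 66.8 CPM (0.34 ± 0.14, adjusted p = 0.0644). Its groups did not overlap either, and it passed in DESeq2 (adjusted p = 0.0499) and without siGLUT2 replicate 2 (adjusted p = 0.0389). ATF6 was at 60.5, 59.6, 57.0 and 64.2 CPM and then 67.2, 65.3 and 59.7 CPM, with overlapping groups (0.09 ± 0.13, adjusted p = 0.671). Its paralog ATF6B was at 17.0, 19.8, 13.3 and 15.3 CPM and then 24.7, 13.4 and 19.4 CPM (0.23 ± 0.25, adjusted p = 0.554).

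Among BiP, its partners and the other folding factors, several rose. Of 15 chaperones and folding factors 6 passed as higher and 1 as lower, with a median of 0.26. HSPA5 (ENSG00000044574, chromosome 9, 125234853 to 125241330, minus strand), the Hsp70 of the ER, was at 737, 837, 754 and 845 CPM and then 1248, 1119 and 975 CPM. All siGLUT2 libraries were above all scrambled ones, a fold change of 0.49 ± 0.09 or 1.4-fold (adjusted p = 0.000154). HYOU1, the large Hsp70 that exchanges nucleotide on BiP, was at 79.9, 84.9, 78.0 and 89.4 CPM and then 137, 124 and 125 CPM (0.63 ± 0.11, adjusted p = 0.000135). Its libraries were tightly grouped in both conditions.

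DNAJB9 (ERdj4; ENSG00000128590, chromosome 7, 108569568 to 108574850, plus strand) is a J-domain protein that brings BiP to IRE1 and to misfolded clients. It was at 7.99, 7.44, 7.59 and 10.6 CPM and then 22.0, 16.1 and 22.7 CPM, a fold change of 1.28 ± 0.27 (adjusted p = 0.000879). The groups were well apart. The annotated span of DNAJB9 overlaps THAP5 and PNPLA8 on the opposite strand, which had 264% and 247% of its counts. The strand setting of the counting is not known, so reads of these genes cannot be told apart there; THAP5 changed by -0.29 ± 0.20 (adjusted p = 0.297) and PNPLA8 by 0.44 ± 0.18 (adjusted p = 0.0835). SDF2L1, a partner of the J-domain protein DNAJB11, was at 63.5, 78.1, 70.3 and 63.8 CPM and then 97.2, 90.2 and 84.7 CPM (0.39 ± 0.12, adjusted p = 0.0203). Its call was lost without scrambled replicate 1 (adjusted p = 0.0666), scrambled replicate 4 (adjusted p = 0.0674) or siGLUT2 replicate 2 (adjusted p = 0.0522).

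Further J-domain proteins did not pass but had positive values. DNAJB11 was at 79.0 ± 2.06 and 94.3 ± 7.91 CPM (0.26 ± 0.12, adjusted p = 0.105). DNAJC3 (p58IPK), which also inhibits PERK, was at 48.5 ± 5.17 and 63.7 ± 11.2 CPM (0.39 ± 0.15, adjusted p = 0.0597). The adjusted p was 0.0118 without siGLUT2 replicate 4 and 0.0463 without scrambled replicate 3. DNAJC10 (ERdj5), a disulfide reductase with a J domain, was at 171 ± 11.1 and 196 ± 4.45 CPM (adjusted p = 0.116). HSP90B1 (GRP94), the Hsp90 of the ER, was the chaperone with the highest level that did not pass. It was at 1386, 1419, 1472 and 1533 CPM and then 1831, 1574 and 1585 CPM, without overlap (0.20 ± 0.08, adjusted p = 0.0562). Its adjusted p was 0.0361 in DESeq2, 0.0295 in limma-voom, 0.0474 with upper-quartile scaling, 0.0412 with the stricter low-count filter and 0.0352 without siGLUT2 replicate 4.

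The lectin chaperones calnexin and calreticulin, which hold glycoproteins during folding, had different values. CANX (ENSG00000127022, chromosome 5, 179678628 to 179730925, plus strand), the membrane-bound one, was at 681, 665, 658 and 656 CPM and then 449, 386 and 383 CPM. It fell by 0.71 ± 0.08 on the log2 scale (0.61-fold), with the smallest adjusted p of the 40 genes (8.74e-07) and a gap between the groups wider than the range within either. CALR, the soluble one, was at 1223, 1323, 1229.5 and 1268 CPM and then 1289, 1401 and 1483 CPM, with overlapping groups (0.14 ± 0.07, adjusted p = 0.162). Leaving out siGLUT2 replicate 2 gave an adjusted p of 0.0232. UGGT1, the glucosyltransferase that sends unfolded glycoproteins back to both lectins, was at 86.3 ± 4.45 and 96.3 ± 9.49 CPM (0.16 ± 0.12, adjusted p = 0.344). The difference between the fold changes of CANX and CALR was not tested.

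Of the calcium-binding and secreted folding factors, 2 rose. RCN1 (reticulocalbin 1, a lumenal EF-hand protein) was at 182, 163, 181 and 177 CPM and then 216, 233 and 258 CPM (0.42 ± 0.09, adjusted p = 0.00151), with no overlap. RCN1 has annotated pseudogenes (RCN1P1 and RCN1P2) that can share reads. MANF, a BiP-binding factor that is secreted under ER stress, was at 85.1, 68.5, 105 and 90.8 CPM and then 105, 114 and 126 CPM. Its groups touched without overlapping (0.40 ± 0.13, adjusted p = 0.0247), and the call was lost without scrambled replicate 1 (adjusted p = 0.0676), scrambled replicate 2 (adjusted p = 0.103), siGLUT2 replicate 3 (adjusted p = 0.0566) or siGLUT2 replicate 4 (adjusted p = 0.0837). CALU (calumenin), another EF-hand protein, was at 535 ± 14.2 and 482 ± 51.0 CPM (-0.15 ± 0.08, adjusted p = 0.191). CRELD2, an ER stress-inducible disulfide isomerase-like protein, was at 32.9 ± 4.25 and 29 ± 2.07 CPM (-0.18 ± 0.18, adjusted p = 0.484).

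Isomerases and oxidases changed little. Of 5 genes, 2 passed, both higher, and the median was 0.07. PDIA4 (ERp72) was at 186, 187, 192 and 194 CPM and then 257, 227 and 223 CPM (0.31 ± 0.09, adjusted p = 0.011). PDIA6 (P5), which also acts on IRE1 and PERK, was at 934, 899, 921 and 986 CPM and then 1066, 1083 and 1118 CPM (0.22 ± 0.07, adjusted p = 0.0244). Neither had overlapping groups. The PDIA6 call was lost in 5 of the 7 fits that left out a library, with an adjusted p of 0.0571 to 0.0717 without scrambled replicate 1, 2 or 3 or siGLUT2 replicate 3 or 4.

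P4HB, the archetypal protein disulfide isomerase, had the highest level among the isomerases that did not pass. It was at 478, 452, 448 and 479.6 CPM and then 392, 379.9 and 442 CPM, so that every siGLUT2 library lay below every scrambled one (-0.20 ± 0.08, adjusted p = 0.0757, and 0.0192 without siGLUT2 replicate 4). ERO1B, the oxidase that recharges PDI, was at 10.1 ± 2.72 and 8.76 ± 3.03 CPM (adjusted p = 0.696). FKBP14, a prolyl isomerase of collagen folding, was at 54.6 ± 5.94 and 57.4 ± 9.27 CPM (adjusted p = 0.778).

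Of 10 ERAD genes 2 passed as higher (20%) and 1 as lower (10%), shares near the 13.9% and 14.4% of all tested genes, with a median of 0.19. HERPUD1 (ENSG00000051108, chromosome 16, 56932048 to 56944863, plus strand), a membrane protein that organises the HRD1 ubiquitin ligase complex, was at 45.1, 33.9, 44.0 and 40.2 CPM and then 81.4, 77.7 and 65.5 CPM. The groups were far apart, with a fold change of 0.87 ± 0.15 or 1.83-fold (adjusted p = 0.000104). SEL1L (ENSG00000071537, chromosome 14, 81471549 to 81533861, minus strand), the adaptor that holds HRD1 and its substrates, was at 46.5, 48.7, 51.9 and 51.5 CPM and then 41.3, 28.5 and 36.3 CPM. It fell by 0.49 ± 0.16 on the log2 scale (adjusted p = 0.027). Its call was lost without scrambled replicate 2 (adjusted p = 0.0567), 3 (adjusted p = 0.0727) or 4 (adjusted p = 0.0736) or siGLUT2 replicate 3 (-0.36, adjusted p = 0.126). SYVN1, the HRD1 ligase itself, was at 13.1 ± 5.48 and 13.7 ± 3.14 CPM (adjusted p = 0.91), and its span overlaps FAU on the same strand and MRPL49 on the other, both more highly counted.

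The EDEM proteins, which trim mannose from misfolded glycoproteins and mark them for removal, differed in value. EDEM3 (ENSG00000116406, chromosome 1, 184690231 to 184754913, minus strand) was at 25.1, 18.1, 13.5 and 21.9 CPM and then 47.6, 38.8 and 43.8 CPM (1.15 ± 0.20, 2.21-fold, adjusted p = 0.000182), without overlap. EDEM1 was at 11.1 ± 5.69 and 11.8 ± 4.52 CPM (0.11 ± 0.36, adjusted p = 0.851). EDEM2 was at 10.8, 12.5, 17.5 and 17.3 CPM and then 12.4, 27.8 and 23.6 CPM. Its siGLUT2 replicate 2 lay among the scrambled libraries (0.56 ± 0.28, adjusted p = 0.138, and 0.0142 without that library). The differences among the 3 EDEM fold changes were not tested.

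The Derlins, channel-like proteins of retrotranslocation, did not pass. DERL1 was at 55.8 ± 6.68 and 69.1 ± 15.4 CPM (adjusted p = 0.154), with siGLUT2 replicate 2 at 51.5 CPM and replicates 3 and 4 at 76.1 and 79.7 CPM (adjusted p = 0.0117 without replicate 2). DERL2 was at 39.1 ± 4.52 and 47.0 ± 12.8 CPM (adjusted p = 0.301). DERL3, with the fewest counts of the 40 genes, was at 3.98 ± 1.95 and 2.1 ± 0.538 CPM (-0.92 ± 0.63, adjusted p = 0.296). Its span overlaps the much more highly counted SMARCB1 on the other strand. VCP (p97), the ATPase that pulls substrates out of the membrane, was at 239, 264, 259 and 251 CPM and then 270.0, 259 and 255 CPM (0.05 ± 0.08, adjusted p = 0.73). It was the ERAD gene with the highest level that did not pass, and its groups overlapped.

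The 3 subunits of the SEC61 channel, through which new proteins enter the ER, rose together. They were the 3 of 5 translocon genes that passed (60.0%), and the median of the 5 was 0.48. Over all tested genes 13.9% passed as higher and 14.4% as lower. The pore subunit SEC61A1 (ENSG00000058262, chromosome 3, 128051641 to 128071683, plus strand) was at 131, 138, 129 and 129.8 CPM and then 180.4, 196 and 200 CPM (0.55 ± 0.09, adjusted p = 0.000135). SEC61B was at 174, 137, 184 and 133 CPM and then 242, 189.9 and 225 CPM (0.48 ± 0.12, adjusted p = 0.00367). SEC61G was at 237, 214, 257 and 193 CPM and then 309, 324 and 311 CPM (0.48 ± 0.10, adjusted p = 0.000615). In each of the 3 all siGLUT2 libraries were above all scrambled ones, with the smallest gap in SEC61B. The SEC61A1 span overlaps RUVBL1 and MGLL on the opposite strand, which had 115% and 126% of its counts. RUVBL1 changed by -0.56 ± 0.10 (adjusted p = 0.000278) and MGLL by 0.17 ± 0.10 (adjusted p = 0.244). Of the translocon-associated protein subunits, SSR3 was at 326, 343, 360.3 and 324 CPM and then 418, 349.9 and 385 CPM, with overlap (0.18 ± 0.09, adjusted p = 0.114). SSR1 was at 169.7 ± 2.69 and 175 ± 12.9 CPM (adjusted p = 0.752).

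**Figure D3:**
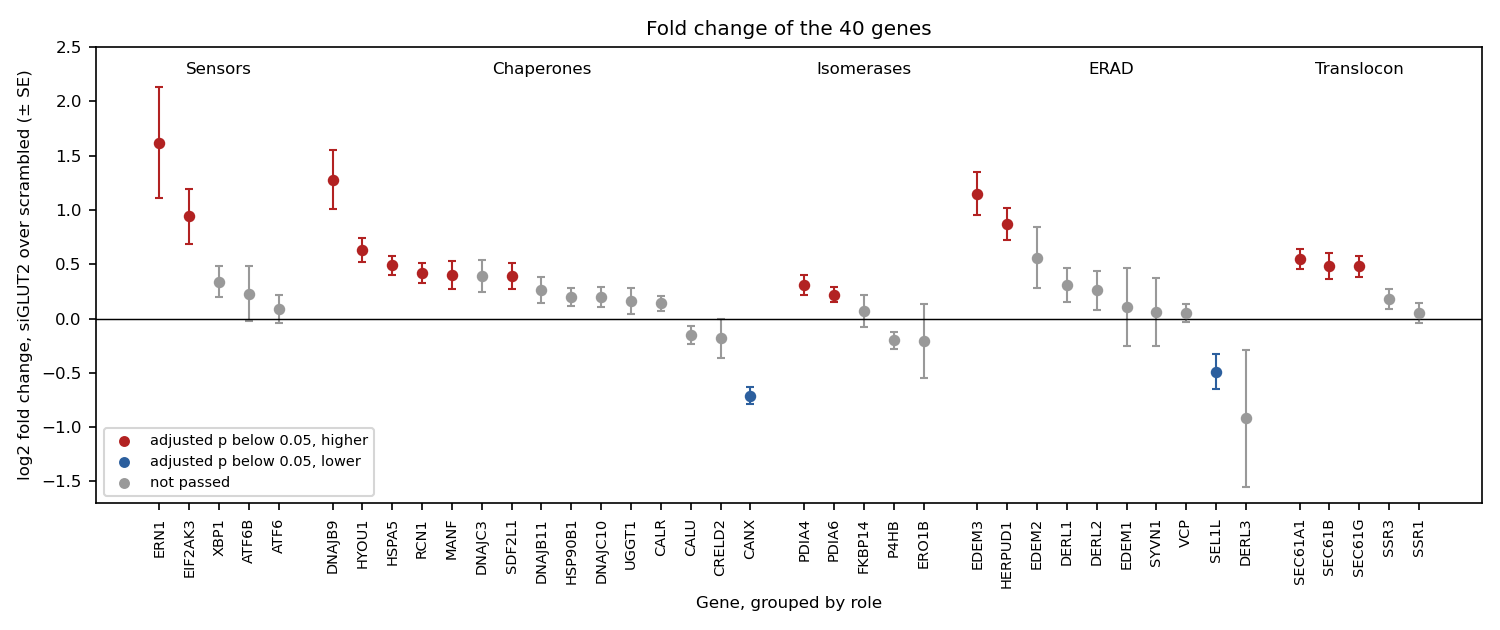
Log2 fold change siGLUT2 over scrambled ± SE (edgeR, n = 4 and n = 3 libraries) of the 40 genes by role; red and blue points had an adjusted p below 0.05. ERN1, DNAJB9 and EDEM3 stand highest at 1.62, 1.28 and 1.15, and CANX and SEL1L are the 2 genes called lower; DERL3 lies lower still at -0.92 but did not pass.

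Calls were set beside the promoter elements shown above. Of the 11 genes with an ERSE or ERSE-II, 5 rose (HSPA5, HYOU1, HERPUD1, SDF2L1 and PDIA6), CANX fell and 5 did not pass (CALR, CRELD2, ERO1B, HSP90B1 and XBP1), with a median log2 fold change of 0.22. Of the 26 genes whose windows held neither, 10 rose and 1 fell, with a median of 0.26. In 22 genes, ERN1, DNAJB9 and EDEM3 among them, the windows held no ERSE, ERSE-II or UPRE core. Of these 9 rose and 1 fell, with a median of 0.29. One of the 22, SEL1L, matched an ERSE when 1 mismatch in CCACG was allowed. The differences between genes with and without an element were not tested. The 3 genes with an ERSE-II all rose, though the SDF2L1 call was lost under 5 of the 17 alternatives described at the end. Over all tested genes 13.9% were called higher and 14.4% lower. Of the 5 genes with a UPRE core, HYOU1 and SEC61A1 rose, and the range was 0.05 to 0.63.

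The 2 genes that fell share the word GACCTTA in their 3' UTRs with DNAJC10, EDEM1 and SSR1, which did not pass. SEL1L also held ACCTTAA, overlapping it. The words GACCTTA and ACCTTAA had been picked by an earlier scan of these same fold changes, so their presence here is a description and no separate support. In the longest annotated 3' UTR of each gene (GENCODE 29, GRCh38), either word stood in 7 of the 40 genes. CANX and SEL1L are shown because they carry the falls, with GACCTTA in capitals.
CANX (chr5:179730375-179730401, plus strand): tggtcacagtGACCTTAgctacatagc
SEL1L (chr14:81473099-81473125, minus strand): agttttaaaaGACCTTAagctggcatt
The other 5 genes with a word were CALU (-0.15), DERL1 (0.31), DNAJC10 (0.20), EDEM1 (0.11) and SSR1 (0.05), which did not pass. UTR length, 2281 bases in CANX, 5423 in SEL1L and 17332 in DNAJC10, was not taken into account. Over the 7 genes the median log2 fold change was 0.05, and 2 were lower. Over the 33 genes with neither word the median was 0.31, and 15 were higher. Of all tested genes with an annotated 3' UTR, 21.2% of 1789 with a word were called lower and 10.9% higher, against 13.6% and 15.1% of 9832 without. The part of these words in the falls of CANX and SEL1L was not tested.

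Other genes of the same compartment and response were read from 4 lists of 116 genes in all, of which 115 could be tested. Of these 27 rose (23.5%) and 9 fell (7.8%), with a median of 0.10, beside the 13.9% and 14.4% of all tested genes given above. Among 35 folding factors and isomerases 7 rose and 2 fell (median 0.14). FKBP10, a prolyl isomerase of collagen, rose by 0.87 ± 0.10 (adjusted p = 1.43e-06), and the EF-hand protein RCN2 by 0.76 ± 0.14. The PDI family member PDIA5 rose by 0.84 ± 0.17, ERP29 by 0.44 ± 0.09 and the peroxiredoxin PRDX4 by 0.45 ± 0.11. TMX3, a transmembrane thioredoxin, went from 53.6 ± 9.15 to 13 ± 3.69 CPM (-2.04 ± 0.21, adjusted p = 2.45e-07), and its relative TMX1, the other gene of the list that fell and named after its value had been seen, changed by -0.33 ± 0.12 (adjusted p = 0.0394).

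Among 28 ERAD partners 9 rose (32.1%) and 3 fell (10.7%), with a median of 0.13, where 13.9% and 14.4% of all tested genes did. YOD1, a deubiquitinase that works with VCP, went from 17.3 ± 5.36 to 59.4 ± 8.79 CPM (1.79 ± 0.21, adjusted p = 1.16e-06). UBE2J1, an ER-anchored ubiquitin-conjugating enzyme, rose by 0.81 ± 0.11, the SEL1L paralog SEL1L3 by 0.86 ± 0.13 and the ligase RNF139 by 0.82 ± 0.23. UBXN4, which tethers VCP to the ER, rose by 0.48 ± 0.09 and the VCP cofactor UFD1 by 0.44 ± 0.12. The 3 that fell had larger adjusted p-values and are named after their values had been seen. NPLOC4, the partner of UFD1 in that cofactor, changed by -0.45 ± 0.13 (adjusted p = 0.0106), the mannosidase MAN1B1 by -0.51 ± 0.17 (adjusted p = 0.0255) and the rhomboid protease RHBDD1 by -1.23 ± 0.44 (adjusted p = 0.0378).

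Among 31 genes of translocation and N-glycosylation 7 rose (22.6%) and 2 fell (6.5%), with a median of 0.06. Of all tested genes 13.9% and 14.4% did. SRPRA, a subunit of the signal recognition particle receptor, went from 28.2 ± 2.11 to 86.2 ± 8.93 CPM (1.61 ± 0.14, adjusted p = 2.88e-08). Subunits of the oligosaccharyltransferase, which attaches N-glycans, did not all move one way. DDOST, DAD1, OSTC and TUSC3 rose by 0.56 ± 0.10, 0.50 ± 0.10, 0.48 ± 0.11 and 0.62 ± 0.14. Of its other subunits in the list, named after their values had been seen, STT3B rose by 0.39 ± 0.10 (adjusted p = 0.00576). MAGT1, the paralog of TUSC3, was called lower (-0.39 ± 0.12, adjusted p = 0.0167). RPN1 (-0.22), RPN2 (0.21), STT3A (0.04), OST4 (0.03) and KRTCAP2 (-0.12) did not pass. TRAM1, a membrane protein beside the translocon, fell by 0.48 ± 0.10 on the log2 scale (adjusted p = 0.00129).

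Among 21 genes that process or carry out the response 4 rose (19.0%) and 2 fell (9.5%), with a median of 0.11. The shares over all tested genes were 13.9% and 14.4%. DDIT3 (CHOP), the transcription factor of late ER stress, went from 18.1 ± 4.0 to 30.6 ± 2.78 CPM (0.75 ± 0.21, adjusted p = 0.00998). EIF2S1, which encodes the PERK substrate eIF2 alpha, rose by 0.41 ± 0.11, the NF-Y subunit NFYB by 0.53 ± 0.17 and the ER membrane protein WFS1 by 0.55 ± 0.18. MBTPS2, the site-2 protease that cuts ATF6, changed by -0.73 ± 0.21, and RTCB, the ligase that joins XBP1 exons, by -0.46 ± 0.14, both called lower. ATF4 and PPP1R15A, named for their place downstream of PERK after their values had been seen, did not pass. ATF4 was at 356 ± 27.4 and 383 ± 67.7 CPM (adjusted p = 0.488), and PPP1R15A at 37.6 ± 7.63 and 51.8 ± 9.17 CPM (adjusted p = 0.058). In the same list TRIB3 (0.11, adjusted p = 0.657), CHAC1 (0.26, adjusted p = 0.673), ATF3 (0.47, adjusted p = 0.206) and SESN2 (0.09, adjusted p = 0.585) did not pass either. These too are named after their values had been seen.

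**Figure D4:**
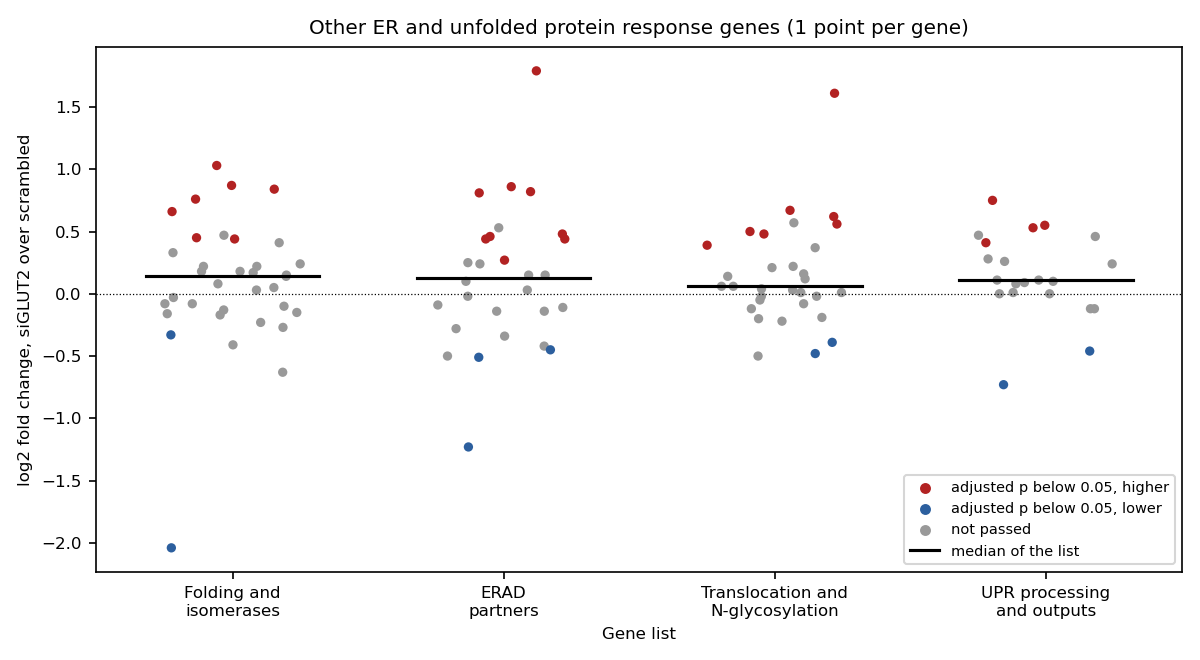
Log2 fold change siGLUT2 over scrambled of the 115 tested other ER and unfolded protein response genes in 4 lists, 1 point per gene, with the median of each list as a black line; horizontal jitter carries no value. The medians lie between 0.06 and 0.14, YOD1 and SRPRA stand highest at 1.79 and 1.61, and TMX3 lowest at -2.04.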

How the data were processed

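Total RNA (125 ng per library) went through a commercial 3' digital mRNA-seq service with single-end reads, per the labels' protocols. Raw counts, 1 row per Ensembl gene identifier, were deposited for 33694 rows, of which 16136 were 0 in every library; 0 value columns were left without a sample. The submitters' processing notes name STAR, HTSeq, edgeR and hg38, with neither versions nor roles. The sources used here give no annotation release, strand setting or use of molecular identifiers, so reads may not be independent molecules.

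Groups came from the sample titles. The counts were fitted with edgeR 4.0.16 (R 4.3.3): filterByExpr with minimum count 10, TMM, robust estimateDisp and glmQLFit, glmQLFTest without covariates, Benjamini-Hochberg adjustment over 12404 genes, threshold 0.05. The p-values measure the spread between libraries labelled as biological replicates, all of 1 cell line. Replicate pairs differed by more than sampling noise, and siGLUT2 pairs differed more than scrambled pairs. For the median gene the squared difference was 4.32 to 6.65 times that of sampling in scrambled pairs and 9.48 to 12.7 times in siGLUT2 pairs. The fit used the same dispersion of a gene for both groups. The script was tested on simulated data. The genes, lists and tests were chosen with earlier results of these data known. Values in every library are given for genes that passed without overlap, for all sensors and for the top-level gene per role that did not pass; up to 6 genes with the smallest adjusted p are named per further list. Alternatives were DESeq2 1.42.0, limma-voom (limma 3.58.1), 3 scalings, 2 filters, a threshold of 0.01, non-robust dispersion, a replicate block and each library left out. Sequences are from RefSeq (promoters, GRCh38.p14) and GENCODE 29.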

Additional observations from a re-analysis of the deposited data

How the results depend on the processing

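The 17 alternatives left 11 of the 17 calls among the 40 genes on the same side of the threshold and reversed none of the 17. The other 6 (ERN1, SDF2L1, MANF, PDIA4, PDIA6 and SEL1L) were lost under at least 1. Genes called higher, 15 as reported, numbered 17 in DESeq2, 16 in limma-voom, 10 at a threshold of 0.01 and 11 to 17 with 1 library left out. Genes called lower, 2 as reported, numbered 1 at the threshold of 0.01 and 1 to 3 with 1 library left out. Of the other ER and response genes, 9 lower calls became 2 at 0.01 and 4 to 10 with 1 library left out; the 4 was without scrambled replicate 4, and 5 were lower without scrambled replicate 1. Over all tested genes 0.01 gave 1097 higher and 1167 lower. The stricter filter left out ERN1 and DERL3.

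Whether the numbers shared by replicates 2 to 4 mark a pairing could not be decided. Deviations of same-numbered libraries from their group means correlated at 0.00953, 0.0152 and -0.00323. Replicates 2 and 3 of siGLUT2 correlated best with their own number, and replicate 4 did not. Such deviations cancel within a group, so with 4 and 3 libraries values near 0 cannot exclude a pairing. With the replicate block, 10 of the 40 genes were called higher and 1 lower, and 22 and 5 of the other genes.

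Genes that had not passed changed sign when 1 library was left out: ATF6B (-0.00094, up to 0.43 over these fits) and FKBP14 (-0.05, up to 0.18) without siGLUT2 replicate 2, EDEM1 (-0.02 and -0.08 without scrambled replicates 1 and 2, -0.01 and -0.09 without siGLUT2 replicates 3 and 4, up to 0.5), SYVN1 (-0.08 and -0.05 without scrambled replicates 2 and 4, -0.13 without siGLUT2 replicate 4, up to 0.39) and SSR1 (-0.01 without siGLUT2 replicate 4, up to 0.09). The share of counts taken by the 40 genes was 0.109 percentage points higher after siGLUT2, 0.14 without mitochondrially encoded genes in the total, and 0.0987 to 0.115 with 1 library left out. With 1 mismatch allowed in CCACG, 12 of 37 windows held an ERSE (1.28% of all symbols), and CCACG alone stood in 28 (42.1% of all symbols). No value of the 4 scrambled libraries stood apart for any of the 40 genes by Dixon's test. DERL3 and ERN1 had the fewest counts of the 40 genes, 156 and 206 over the 7 libraries.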
